A study of Drosophila melanogaster with 62 samples.

Results

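The pupal comparison of the gypsy2 insertion with wild type (WT) comprised 6 4C-seq libraries, 3 per genotype, out of 24 4C-seq libraries and 62 samples in the series. They were chosen by label only, and all of their 1-kb bins were kept except those next to the viewpoint (137541 of 137552 bins in each table). In 4C-seq, DNA fragments that lie close together in the nucleus are ligated, and the reads joined to a chosen fragment, the viewpoint, are counted along the genome, here per bin. The gypsy2 libraries came from pupal imaginal leg discs of flies whose genotype is given as an insertion of gypsy, and the controls from pupal imaginal leg discs of wild type flies. Both were grown at 20 °C. Larval leg disc libraries of the same pair of genotypes (3 gypsy2 and 3 WT) were used where the stages were compared. The labels do not give the position of the insertion, the number of discs or animals per library, or whether replicates came from separate crosses. No p-value here therefore reaches beyond these libraries. Exact permutation p-values rest on the spread between them, while those of edgeR take the spread from all bins or genes of like count. The gypsy2 columns also carry the letters enh, which the labels leave unexplained. Leg discs hold cells with and without *dac* transcription, and their contacts cannot be told apart in these counts. Being DNA contacts, they also offer no marker by which the labelled tissue could be checked.

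Each of the 6 samples was counted from 2 viewpoints on chromosome 2L (dm6). The PRE2 viewpoint bin, 16487001 to 16488000, lies just beyond the 5′ end of *dac* (16466512 to 16485998, minus strand). The gypsy2 viewpoint bin, 16465001 to 16466000, lies beyond the 3′ end of *dac*, between it and *Idgf3*. *dac* encodes Dachshund, a nuclear factor that patterns the middle of the leg and takes part in retinal determination. Polycomb response elements (PREs) are DNA elements that recruit Polycomb proteins, which keep developmental genes silent, and PREs can contact each other over long distances. At *dac* one of them, PRE2, lies next to the promoter and the other, PRE1, in an intron of the neighbouring gene *CG5888*. The gypsy retrotransposon carries an insulator bound by Su(Hw), known in *Drosophila* for blocking an enhancer from a promoter when it is placed between them. Whether the insertion lies at the gypsy2 viewpoint is not given in the labels. Contacts that cross this viewpoint bin are those between *dac* and PRE2 on the right and *Idgf1* to *Idgf3*, *CG5888* and PRE1 on the left. Below, the side of smaller coordinates is called the *CG5888* side and that of larger coordinates the *Tpr2* side.

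The contacts of PRE2 with PRE1 are the ones this comparison turns on, so the part of each element richest in GAGAG, the core of the repeats that the GAGA factor (GAF) binds, is shown here from the dm6 reference, plus strand, with GAGAG and its complement CTCTC in capitals. The PRE1 stretch, 2L:16422577-16422876, lies in the intron of *CG5888* within the 6-kb region counted below as PRE1, and holds 10 copies on either strand. The PRE2 stretch, 2L:16486287-16486586, lies outside any annotated gene, in the bin next to the viewpoint bin, and holds 11 copies.
PRE1: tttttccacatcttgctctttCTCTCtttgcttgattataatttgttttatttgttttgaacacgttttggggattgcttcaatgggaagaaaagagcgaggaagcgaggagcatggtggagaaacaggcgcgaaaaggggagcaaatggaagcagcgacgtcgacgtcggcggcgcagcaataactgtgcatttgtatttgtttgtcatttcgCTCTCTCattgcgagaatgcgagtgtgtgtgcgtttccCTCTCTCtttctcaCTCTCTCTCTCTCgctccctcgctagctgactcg
PRE2: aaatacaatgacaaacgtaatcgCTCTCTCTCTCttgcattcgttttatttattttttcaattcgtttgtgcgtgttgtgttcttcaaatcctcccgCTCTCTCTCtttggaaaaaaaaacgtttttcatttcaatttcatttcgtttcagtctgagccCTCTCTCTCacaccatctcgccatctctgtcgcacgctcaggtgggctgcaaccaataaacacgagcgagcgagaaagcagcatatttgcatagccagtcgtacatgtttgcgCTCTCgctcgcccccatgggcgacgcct
At least 1 copy occurred in 29.77% of 78377 adjoining 300-base windows of 2L, as many as in PRE1 in 0.148% and as many as in PRE2 in 0.101%. Both stretches were picked as the richest within their region, so these shares describe them and test nothing, and a match is no proof of binding.

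The pupal libraries held 9531010 to 18297507 counts. The PRE2 viewpoint bin took 32 to 39% of them and the gypsy2 viewpoint bin 20 to 28%, and 4046593 to 9826954 counts lay on 2L outside the left-out 5 kb, the total to which each library was scaled. Within 500 kb, 12 to 15% of bins were at 0, and on other chromosomes 82 to 86%. No pair of replicates agreed within sampling noise (chi-square per degree of freedom at least 113.5). WT replicate 2 stood apart: from PRE2 it had 7 bins within 500 kb at 20 times or more the level of both other WT replicates and from the gypsy2 viewpoint 10, against 0 in every gypsy2 library and 0 to 2 in the other WT libraries. Among them, the bin of *CG5888* at 16426001 had 1, 4 and 489 counts from the gypsy2 viewpoint in gypsy2, against 10, 5971 and 0 in WT. WT replicate 3 in turn had 10 bins that lay 20 times or more below both other WT replicates from the gypsy2 viewpoint. Results that rest on WT replicate 2 are given with and without it.

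The genotype labels could be checked at the transposon itself. In the dm6 reference the annotated gypsy element gypsy{}615 lies on 2R, and 1 of its bins, 5055001 to 5056000, covers bases 682 to 1681 from the 5′ end of the element. Counted from the gypsy2 viewpoint, this bin had 8286, 7104 and 13593 counts in the gypsy2 libraries, against 1, 0 and 0 in WT. From PRE2 it had 1036, 1043 and 944 counts in gypsy2, against 0, 0 and 0 in WT. The genotypes were thus separated without overlap as labelled. The other 85 bins of the 22 annotated gypsy elements summed to 732 to 1290 counts in gypsy2 and 529 to 1497 in WT from the gypsy2 viewpoint. In the larval libraries the same bin had 13218, 12884 and 6933 counts from the gypsy2 viewpoint in gypsy2, against 79, 2436 and 0 in WT, so that larval WT replicate 2 held counts where the other larval WT libraries had few or none. Whether reads from an inserted copy were placed on this annotated one was not tested.

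From PRE2, contacts with the PRE1 region and *CG5888* were lower in gypsy2, and contacts with *dac* and *Tpr2* were higher. The PRE1 region (6 bins, 16420001 to 16426000) took 2.14%, 2.19% and 2.19% of the 2L counts in the gypsy2 libraries, against 3.31%, 3.32% and 3.41% in WT. Every gypsy2 library was below every WT library, and the spread within each genotype was small beside the gap (2.17% ± 0.0328 in gypsy2 and 3.35% ± 0.0512 in WT, SD, n = 3 each). The log2 difference was -0.62 ± 0.018 (SE). Within the region, the bin with the middle of the PRE1 amplicon of the study's qChIP assay was nearly empty. It had 60, 67 and 30 counts in gypsy2, against 21, 49 and 83 in WT. *CG5888*, the gene that surrounds PRE1, had 10.8%, 10.9% and 10.6% in gypsy2, against 14.2%, 14.5% and 14.2% in WT (log2 -0.41 ± 0.013). The part of *dac* outside the left-out bins had 8.24% ± 0.0749 in gypsy2 and 6.16% ± 0.158 in WT (SD, n = 3 each, log2 0.42 ± 0.023). *Tpr2*, which encodes a tetratricopeptide co-chaperone on the other side of PRE2, had 6.27%, 6.54% and 6.84% in gypsy2, against 5.44%, 4.63% and 5.46% in WT, and WT replicate 2 was the lowest. Its log2 difference was 0.34 ± 0.087, and 0.26 without WT replicate 2. Within *Tpr2* the genotypes were separated in the 3-kb window centred 7.5 kb from the viewpoint bin. This window had 2.04%, 2.25% and 2.46% in gypsy2, against 1.06%, 0.956% and 1.11% in WT. In the windows centred at 10.5, 13.5, 16.5 and 19.5 kb the genotypes overlapped.

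The chitinase-like growth factor genes *Idgf1*, *Idgf2* and *Idgf3* lie between the main part of *CG5888* and the gypsy2 viewpoint. From PRE2 the genotypes were separated at *Idgf2* and *Idgf3* and overlapped at *Idgf1*. *Idgf2* had 0.664% ± 0.0346 in gypsy2 and 0.866% ± 0.0665 in WT, and *Idgf3* 1.27% ± 0.0222 in gypsy2 and 1.82% ± 0.195 in WT (SD, n = 3 each). *Idgf1*, the one farthest from the viewpoint, had 0.607%, 0.643% and 0.667% in gypsy2, against 0.64%, 0.611% and 0.596% in WT. Its log2 difference was 0.05 ± 0.05, and it was -0.002 when counts were scaled to 2L beyond 200 kb. Beyond *Tpr2*, *mtgo*, which encodes a fibronectin type III domain protein, had 3.57% ± 0.115 in gypsy2 and 2.89% ± 0.0967 in WT, and *CG5953* 4.43% ± 0.129 in gypsy2 and 4.73% ± 0.123 in WT (SD, n = 3 each). *jhamt*, the juvenile hormone acid methyltransferase gene beyond *CG5888*, had 0.223% ± 0.0267 in gypsy2 and 0.307% ± 0.0195 in WT. The genotypes overlapped at *Idgf1* alone of 10 gene regions near the viewpoints, the 9 named above and *CG31816*. Thus 9 (90%) did not overlap, against 8.17% of the 14535 genes tested. These genes lie on all chromosomes, mostly far from the viewpoint where counts are lower, so the shares are not like for like. Over 41 regions compared from PRE2, each of the 25 without overlap had the smallest exact permutation p that 3 libraries against 3 allow, 0.1 (two-sided, 0.164 after Benjamini-Hochberg adjustment), so no region share could pass 0.05.

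**Figure D1:**
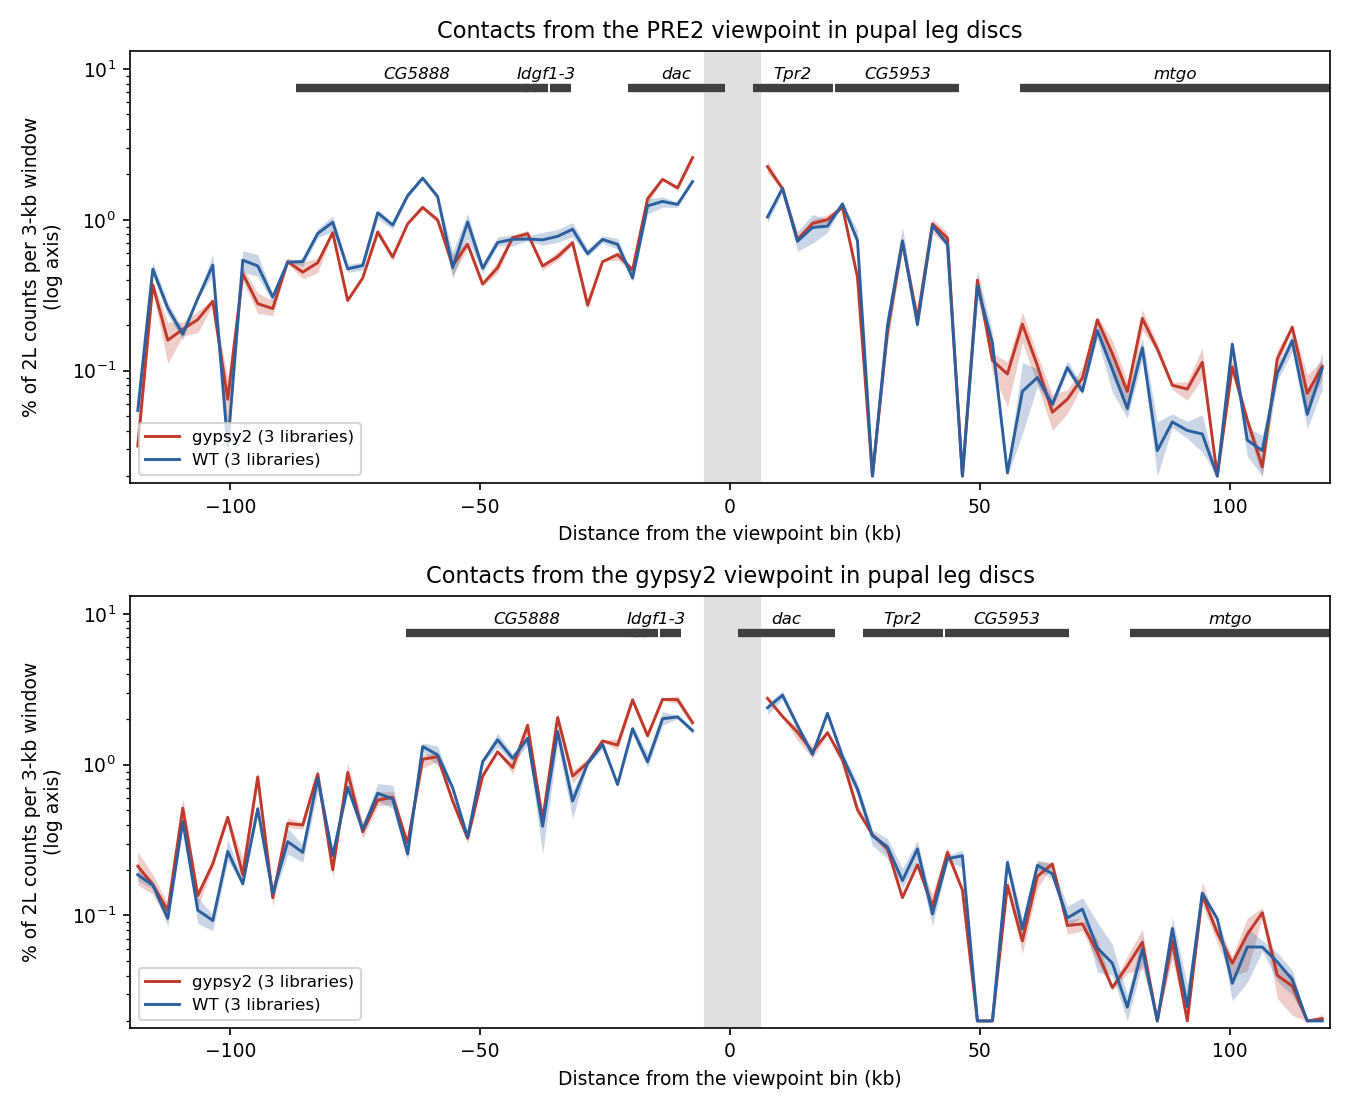
Contacts in pupal leg discs from the PRE2 viewpoint (top) and the gypsy2 viewpoint (bottom), as the percentage of 2L counts per 3-kb window (log axis) against the distance from the viewpoint bin in kb. Lines are means and bands the range of 3 libraries, windows below 0.02% are drawn at 0.02%, bars mark genes and the grey area was left out. From PRE2 the gypsy2 line runs below WT over most of *CG5888* and above it over *dac*, and from the gypsy2 viewpoint it runs above WT over *Idgf1* to *Idgf3*.

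Contacts of the gypsy2 viewpoint with the *Idgf* genes were higher in gypsy2. *Idgf1* had 1.99%, 1.9% and 2.18% of 2L counts in gypsy2, against 1.16%, 1.16% and 0.986% in WT. All gypsy2 libraries were above all WT libraries, with a log2 difference of 0.88 ± 0.097 (SE, n = 3 each). *Idgf2* had 2.73% ± 0.121 in gypsy2 and 1.96% ± 0.253 in WT, and *Idgf3* 5.41% ± 0.192 in gypsy2 and 4.09% ± 0.247 in WT (SD, n = 3 each). *CG5888* had 18.6%, 19.1% and 19.3% in gypsy2, against 17.4%, 17.4% and 15.98% in WT (log2 0.17 ± 0.045). Its bins include those of *Idgf1* and part of *Idgf2*, which overlap it. *jhamt* had 0.465% ± 0.0237 in gypsy2 and 0.318% ± 0.04 in WT (log2 0.56 ± 0.11). The PRE1 region took 2.6%, 2.96% and 2.79% in gypsy2, against 2.57%, 2.75% and 2.46% in WT. These values overlapped (log2 0.10 ± 0.071, exact permutation p = 0.2, n = 3 each).

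On the other side of the gypsy2 viewpoint, *CG5953* was lower in gypsy2 and *dac* was lower unless strong bins were capped. *dac* had 9.7%, 8.97% and 9.32% in gypsy2, against 10.6%, 10.8% and 9.98% in WT (log2 -0.16 ± 0.046), but with bins within 500 kb capped at the 99th percentile of their library the difference was 0.06. *CG5953* had 1.06% ± 0.0406 in gypsy2 and 1.22% ± 0.0381 in WT (SD, n = 3 each). *Tpr2* had 1.16%, 1.16% and 1.11% in gypsy2, against 1.45%, 1.13% and 1.4% in WT. WT replicate 2 fell among the gypsy2 values, and the log2 difference was -0.20 with it and -0.31 without it. *Nepl8*, which encodes a neprilysin-like protein next to PRE2, had 1.04% ± 0.0359 in gypsy2 and 1.16% ± 0.101 in WT, and *mtgo* 1.65% ± 0.0488 in gypsy2 and 1.71% ± 0.12 in WT. Both overlapped, and the sign of *mtgo* turned in 2 alternatives (0.043 with counts scaled to 2L beyond 200 kb and 0.001 without WT replicate 3). The genotypes did not overlap in 8 of 11 gene regions (72.7%), against 7.87% of the 14647 genes tested, most of them far away with lower counts. Over 46 regions, each of the 23 without overlap had an exact permutation p of 0.1 (two-sided, 0.2 after Benjamini-Hochberg adjustment).

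**Figure D2:**
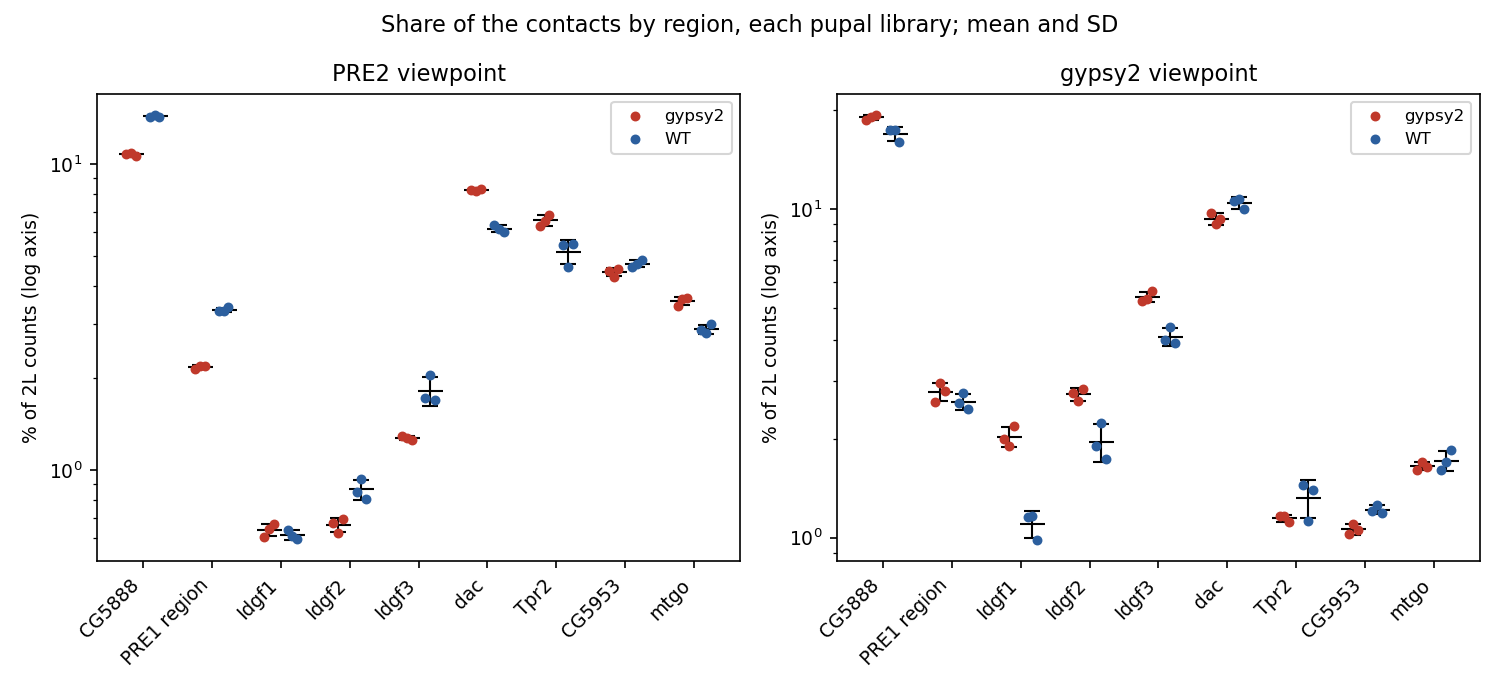
Share of the 2L counts (%, log axis) of the PRE1 region and of the genes near the viewpoints in each pupal library, from the PRE2 viewpoint (left) and the gypsy2 viewpoint (right). Points are libraries, gypsy2 left of WT, and bars give their mean and SD. From PRE2 the 3 gypsy2 libraries lie at 2.14 to 2.19% for the PRE1 region, below the WT libraries at 3.31 to 3.41%.

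Since the same 6 samples were counted from both viewpoints, the 2 sets of values are not independent, but the viewpoints can be compared within each sample. For *dac* and *Tpr2* the bins that were kept differ between the viewpoints. The log2 change from PRE2 minus that from the gypsy2 viewpoint was -0.72 for the PRE1 region, -0.58 for *CG5888*, -0.83 for *Idgf1*, -0.87 for *Idgf2*, -0.91 for *Idgf3* and -1.02 for *jhamt*. It was 0.58 for *dac*, 0.54 for *Tpr2* and 0.36 for *mtgo*. For each of these 9 regions the 3 gypsy2 samples lay entirely on 1 side of the 3 WT samples (exact permutation p = 0.1, two-sided, the smallest possible, 0.183 after adjustment over 22 comparisons). For *CG5953* the difference of 0.105 did not separate the genotypes (exact permutation p = 0.2), nor did it for any chromosome sum.

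Single bins were then compared by edgeR's quasi-likelihood test over all bins with a mean of 10 counts or more. The test took the spread from all bins of like count, so for regions with many counts its error is smaller than the spread between libraries (0.0235 for *Tpr2* from PRE2, against 0.087 from the libraries). A call, an adjusted p under 0.05, is therefore read below together with the values of the libraries. From PRE2, 81 of 58956 bins were called (0.137%), 30 higher (0.0509%) and 51 lower (0.0865%) in gypsy2. Of these, 71 lay among the 887 bins within 500 kb (8%), 24 of them higher (2.71%) and 47 lower (5.3%), and in 62 of the 71 the genotypes did not overlap, against 26% of all tested bins in that range. Without WT replicate 2, 92 bins were called, 69 of them shared. limma with a trend, which shares the spread in the same way, called 84 bins, 64 of them shared. DESeq2 scaled the libraries by its own factors, not to the 2L total, and gave an adjusted p for 19762 of the bins. It called 1201, and only 16 of the 81 were among them.

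The called bins from PRE2 were unevenly spread over the genes. In *CG5888*, 21 of 48 bins tested were lower and 1 higher. In the stretch between *jhamt* and *CG5888* 7 of 28 bins were lower, and in that between *Idgf3* and *dac* 5 of 10, with none higher in either. In *dac*, 10 of 16 bins were higher and 1 lower, in *Tpr2* 4 of 13 were higher and 1 lower, and *mtgo* held 4 of each direction among 101. The bin at 16422001, which holds the PRE1 stretch printed above, had 36770, 30747 and 26335 counts in gypsy2, against 37043, 40964 and 59644 in WT. Scaled to 2L this was 0.541% ± 0.0177 in gypsy2 and 0.951% ± 0.0378 in WT (SD, n = 3 each). The bin at 16418001, also in *CG5888*, had 0.272% ± 0.0184 in gypsy2 and 0.548% ± 0.0229 in WT.

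In *Tpr2*, 8 kb from the PRE2 viewpoint bin, the bin at 16495001 to 16496000 had 55924, 49892 and 41341 counts in gypsy2, against 9004, 7839 and 15119 in WT, which was 0.851% ± 0.0402 in gypsy2 and 0.217% ± 0.0257 in WT (SD, n = 3 each, log2 1.97). The *Tpr2* bin at 16493001 had 1.4% ± 0.172 in gypsy2 and 0.823% ± 0.0535 in WT. That at 16502001 went the other way, with 0.0885% ± 0.00401 in gypsy2 and 0.153% ± 0.0531 in WT. Within *dac* the bin at 16481001 had 0.332% ± 0.0249 in gypsy2 and 0.13% ± 0.0214 in WT, and that at 16471001 0.668% ± 0.0548 in gypsy2 and 0.359% ± 0.0368 in WT. The next bin, 16470001, which lies toward the gypsy2 viewpoint, was the 1 lower bin of *dac*, with 0.37% ± 0.0446 in gypsy2 and 0.597% ± 0.0521 in WT. The adjoining bins at 16470001 and 16471001 thus moved in opposite directions from PRE2.

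The gypsy2 viewpoint gave 70 called bins of 62346 (0.112%), 37 higher (0.0593%) and 33 lower (0.0529%) in gypsy2. Within 500 kb these were 59 of 888 (6.64%), 33 higher (3.72%) and 26 lower (2.93%), and in 54 of the 59 the genotypes did not overlap, against 21.7% of all tested bins in that range. Without WT replicate 2, 66 bins were called, 57 of them shared, and limma with a trend called 61, 54 of them shared. All bins of *Idgf1* (2 of 2) and *Idgf2* (4 of 4) and 5 of 6 of *Idgf3* were higher. In *CG5888* 9 of 48 were higher, among them the 4 it shares with *Idgf1* and *Idgf2*, and 7 lower. The *CG5888* bin at 16442001 had 72920, 99253 and 113284 counts in gypsy2, against 67418, 67504 and 59790 in WT, or 1.35% ± 0.123 in gypsy2 and 0.722% ± 0.0367 in WT (SD, n = 3 each). The bin of the printed PRE1 stretch had 0.529% ± 0.0565 in gypsy2 and 0.677% ± 0.0399 in WT.

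In *dac*, 9 of 15 bins were lower from the gypsy2 viewpoint and 4 higher. The bin at 16480001 had 0.591% ± 0.0442 in gypsy2 and 0.875% ± 0.0895 in WT, and that of amplicon D5 of the study's qChIP assay, at 16483001, had 0.515%, 0.522% and 0.498% in gypsy2, against 0.655%, 0.668% and 0.64% in WT. Between them, the bin at 16482001 had 25321, 21916 and 36358 counts in gypsy2, against 13073, 12993 and 11700 in WT (0.394% ± 0.0631 in gypsy2 and 0.14% ± 0.00828 in WT, SD, n = 3 each, log2 1.49). The bin of amplicons PRE2 and D7 had 0.286%, 0.283% and 0.253% in gypsy2, against 0.312%, 0.28% and 0.324% in WT, which overlapped. Between *jhamt* and *CG5888*, the bins at 16378001 and 16384001 moved in opposite directions, with 0.247% ± 0.0253 in gypsy2 and 0.0641% ± 0.0243 in WT at 16378001, and 0.056% ± 0.00181 in gypsy2 and 0.2% ± 0.0253 in WT at 16384001.

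Some bins had almost all of their counts in 1 genotype. A bin was called near absent in a genotype where the other averaged 500 counts or more and each of its libraries had, after scaling to 2L, at least 10 times the level of every library of the first. The clearest, at 16458001 to 16459000 between *Idgf3* and the gypsy2 viewpoint, contains amplicon D3 and no annotated gene. It had 63, 21 and 11 counts from the gypsy2 viewpoint in gypsy2, against 39653, 36449 and 32082 in WT. From PRE2 it had 148, 119 and 135 counts in gypsy2, against 9045, 6336 and 8955 in WT. The neighbouring bin at 16457001 was well covered in both genotypes from the gypsy2 viewpoint, with 0.709% ± 0.0451 in gypsy2 and 0.552% ± 0.0862 in WT (SD, n = 3 each). At D3 the larval libraries had 0, 0 and 1 counts from the gypsy2 viewpoint in gypsy2, against 10282, 8333 and 14480 in WT.

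From PRE2, 6 bins were near absent in WT and 4 in gypsy2, and from the gypsy2 viewpoint 10 in WT and 35 in gypsy2. Within 500 kb, 2 of those of PRE2 were near absent in WT and 3 in gypsy2, while for the gypsy2 viewpoint it was 2 in WT and 10 in gypsy2. The bin at 16232001 in *Ca-Ma2d* had 1839, 910 and 1526 counts from the gypsy2 viewpoint in gypsy2, against 0, 0 and 0 in WT, and the bin at 16281001 in *crp* had 1193, 1636 and 2411 in gypsy2, against 0, 19 and 0 in WT. In the opposite direction, a *Tpr2* bin at 16491001 had 19, 1 and 3 counts in gypsy2, against 9503, 3797 and 7030 in WT, and an intergenic bin at 16380001 had 11, 44 and 1 in gypsy2, against 4908, 5196 and 5042 in WT. The same direction without overlap was seen in the separate larval libraries for 1 of the 2 and 7 of the 10 near bins from the gypsy2 viewpoint, and for 1 of 2 and 3 of 3 from PRE2. Beyond 500 kb it was seen for 2 of the 8 bins near absent in WT and 3 of the 25 near absent in gypsy2 from the gypsy2 viewpoint, and for 2 of 4 and 1 of 1 from PRE2. The *Ca-Ma2d* and *crp* bins were also those where larval WT replicate 2 had counts (260 and 208 from the gypsy2 viewpoint, against 0 in the other larval WT libraries). The *mtgo* bin at 16550001 is among the near bins with the same larval direction, but its larval counts were few. With PRE2 as viewpoint it had 0, 0 and 0 in larval gypsy2, against 3, 1 and 4 in larval WT. Seen from the gypsy2 viewpoint, this bin had 0, 0 and 0 in larval gypsy2, against 8, 1 and 8 in larval WT. Its larval direction thus rests on counts near 0. None of the 46 region shares recomputed without the near-absent bins changed its direction.

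**Figure D3:**
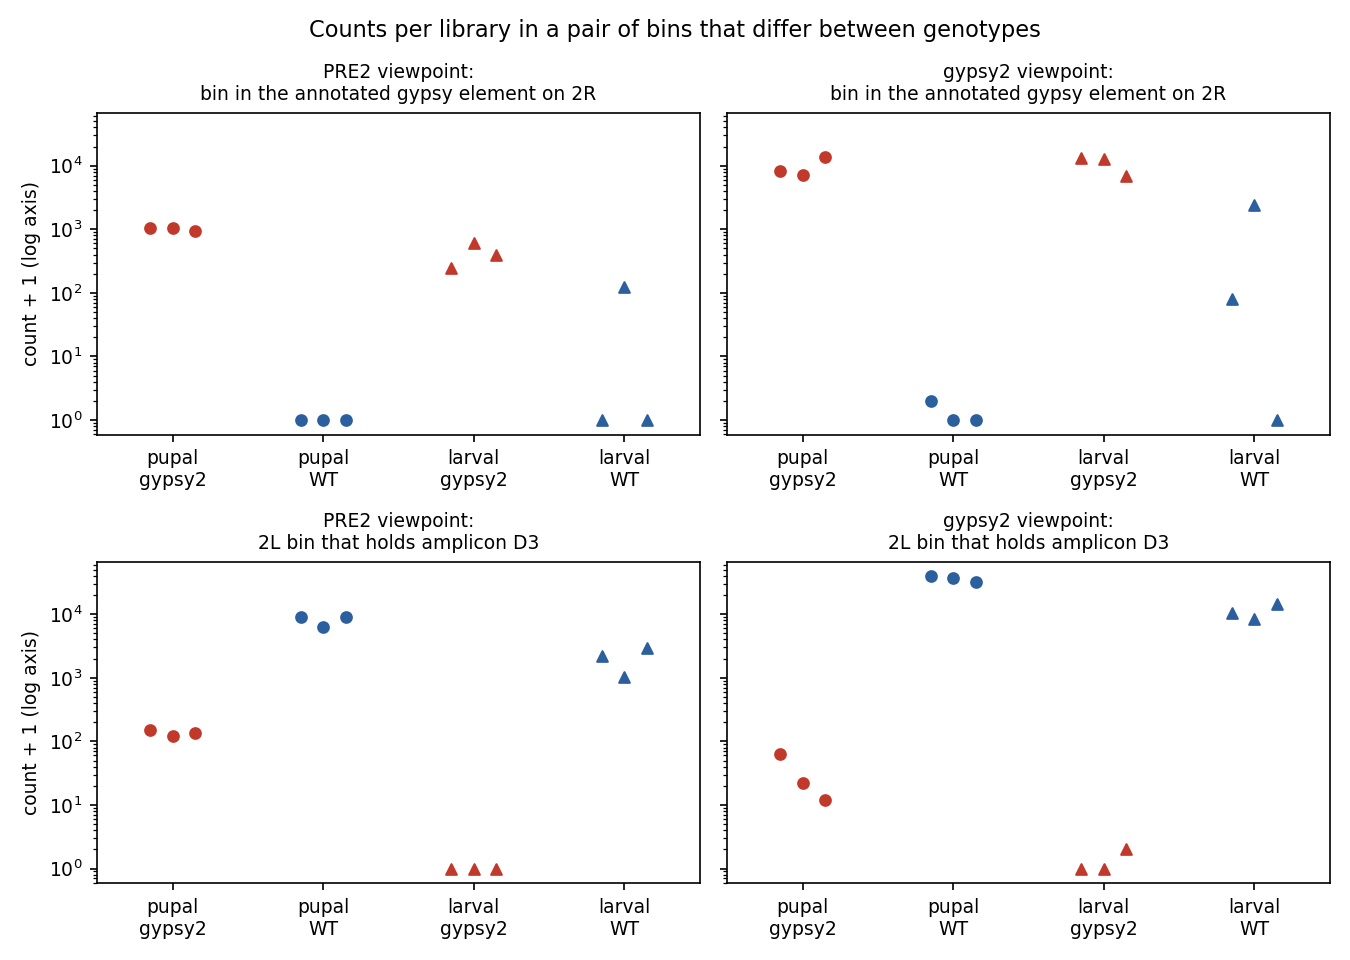
Counts per library (count + 1, log axis) in the bin of the annotated gypsy element on 2R (top) and in the bin of amplicon D3 on 2L (bottom), from the PRE2 viewpoint (left) and the gypsy2 viewpoint (right). Each point is a library, circles pupal and triangles larval, red gypsy2 and blue WT. In the gypsy2 viewpoint panels the pupal libraries have 7104 to 13593 counts in gypsy2 and 0 or 1 in WT in the gypsy element, and 11 to 63 in gypsy2 and 32082 to 39653 in WT at D3.

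Sums over genes gave 15 of 14535 called genes from PRE2 (0.103%), 6 higher (0.0413%) and 9 lower (0.0619%), and 13 of 14647 from the gypsy2 viewpoint (0.0888%), 7 higher (0.0478%) and 6 lower (0.041%). Neighbouring genes share bins and are not independent. Of the 9 genes of the locus, 8 could be tested from PRE2, since *Nepl8* lies in the left-out part. *dac*, *Tpr2* and *mtgo* rose and *CG5888*, *Idgf2* and *Idgf3* fell, though *Idgf2* had an adjusted p of 0.181 by edgeR without WT replicate 2. All 9 were tested from the gypsy2 viewpoint, *CG5888* and *Idgf1* to *Idgf3* rose, and *dac* fell, with the change of sign under capping given above. Next to the locus, *CG31816* had 3981, 6549 and 5346 counts from PRE2 in gypsy2, against 54, 953 and 231 in WT, and 2439, 2248 and 3057 from the gypsy2 viewpoint in gypsy2, against 25, 447 and 125 in WT. WT replicate 2 was the highest WT library in both. *CG44405*, beyond *jhamt*, fell from PRE2 (log2 -1.13 ± 0.18, edgeR adjusted p = 5.03e-07), and *jhamt* rose from the gypsy2 viewpoint (log2 0.55 ± 0.11, edgeR adjusted p = 0.00177). *CG42266*, beside *CG44405*, also fell from PRE2 (log2 -0.65 ± 0.15, edgeR adjusted p = 0.0142, and 0.156 without WT replicate 2).

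Beyond the locus few genes were called. From PRE2, *ND-B17*, which encodes a subunit of mitochondrial complex I, fell with 287, 619 and 329 counts in gypsy2, against 1561, 1779 and 1936 in WT (edgeR adjusted p = 0.00216, and 0.0655 without WT replicate 2). *Gli*, which encodes gliotactin of the tricellular septate junctions and lies in the same part of 2L, had 6264, 9171 and 3025 counts in gypsy2, against 1595, 2673 and 2380 in WT. Relative to 2L the libraries overlapped, although edgeR called it (adjusted p = 0.00796). With the gypsy2 viewpoint *beat-Ic*, of a family of axon guidance genes, fell (log2 -0.61 ± 0.13, edgeR adjusted p = 0.00177), and *CG4168* fell (log2 -0.66 ± 0.15, edgeR adjusted p = 0.0103, and 0.0686 without WT replicate 2). Others were near 0 in 1 genotype. From PRE2 *lectin-33A* had 3, 0 and 0 counts in gypsy2, against 795, 223 and 177 in WT. There *snRNA:U5:35D* had 3, 0 and 0 counts in gypsy2, against 341, 517 and 264 in WT. For the gypsy2 viewpoint *CG31810* had 2, 2 and 1 counts in gypsy2, against 1790, 3756 and 262 in WT. *SRPK* on 2R had 355, 949 and 407 counts from PRE2 in gypsy2, against 3, 8 and 0 in WT, and *ORY* on Y had 1, 46 and 0 in gypsy2, against 314, 649 and 914 in WT. From the gypsy2 viewpoint *CG7164* had 476, 396 and 1067 counts in gypsy2, against 0, 0 and 0 in WT, and *CR43359* 0, 0 and 0 in gypsy2, against 669, 495 and 882 in WT. *CG14893* on 3R, with 0, 0 and 2 counts in gypsy2, against 0, 1817 and 1629 in WT, was absent from WT replicate 1 as well. Without WT replicate 2, edgeR's adjusted p was 0.502 for *ORY*, 0.0797 for *CR43359* and 0.116 for *CG14893*, and 0.0116 for *SRPK* and 0.0206 for *CG7164*. In the same fits edgeR's adjusted p was 0.825 for *snRNA:U5:35D*, 0.141 for *CG31810* and 0.00903 for *lectin-33A*. None of these genes near 0 in 1 genotype was called by limma with a trend. Its adjusted p lay between 0.538 for *ORY* and 0.909 for *lectin-33A*, *snRNA:U5:35D* and *SRPK*.

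Outside the locus, edgeR called no gene of the developmental lists, though a missing call does not show unchanged contacts. Among 20 leg proximodistal patterning genes, all tested, *dac* was the only one called by edgeR, higher from PRE2 and lower from the gypsy2 viewpoint, and the median log2 change of the list was -0.03 from PRE2, against -0.03 for all genes, and -0.40 from the gypsy2 viewpoint, against -0.15 for all genes. *exd*, which encodes a homeodomain cofactor of Hox proteins, had 169, 372 and 92 counts from PRE2 in gypsy2, against 0, 0 and 0 in WT, and was called by DESeq2 (adjusted p = 0.00869) but not by edgeR (adjusted p = 0.663). *Dll*, the distal selector gene of the leg, had 0.0104% ± 0.0031 in gypsy2 and 0.0152% ± 0.00462 in WT from PRE2. No retinal determination gene of 4, no Hox gene of 8 and none of 19 other 2L genes known as Polycomb targets was called by edgeR from either viewpoint, and at an unadjusted p under 0.05 edgeR had 542 genes over all from PRE2 and 543 from the gypsy2 viewpoint. Of the 19 Polycomb targets, 4 had such a p from the gypsy2 viewpoint, beside 3.71% of all genes. These were *ab*, *salr*, *salm* and *pdm2*, all with lower values in gypsy2. From PRE2 it was 1, *cad*, with a higher value, beside 3.73%. The shares of all genes cover every chromosome, while the 19 lie on 2L. From the gypsy2 viewpoint the *CG5888* side, where the 4 lie, was lower as a whole (log2 -0.10 at 2 to 5 Mb and -0.12 over 5 Mb). Whether the 4 fell more than their surroundings was not tested. *pdm2*, a POU-domain gene of neuroblasts, had 0.0853% ± 0.0207 in gypsy2 and 0.148% ± 0.0236 in WT from the gypsy2 viewpoint (edgeR adjusted p = 0.314, limma 0.0034, DESeq2 0.0248). The Hox gene *Ubx* had 0.00895% ± 0.00192 in gypsy2 and 0.0279% ± 0.0119 in WT (edgeR adjusted p = 0.63, limma 0.892, DESeq2 0.0357).

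The shares were also summed by distance and side. From PRE2 the *CG5888* side held 8.18% ± 0.0712 of 2L counts at 5 to 20 kb in gypsy2 and 6.09% ± 0.184 in WT, but 5.63% ± 0.07 in gypsy2 and 7.14% ± 0.244 in WT at 20 to 50 kb, beyond the gypsy2 viewpoint. At 50 to 100 kb it held 9.73% ± 0.145 in gypsy2 and 13.4% ± 0.237 in WT (SD, n = 3 each), and at 100 to 200 kb 5.56% ± 0.132 in gypsy2 and 6.73% ± 0.335 in WT. On the *Tpr2* side the share was higher at 5 to 20 kb (log2 0.34), at 50 to 100 kb (0.56) and at 100 to 200 kb (0.22), and lower at 20 to 50 kb (-0.08). From 200 to 500 kb both sides overlapped (log2 0.001 and 0.013). In all, the bins within 500 kb held 52.2%, 51.8% and 52.4% in gypsy2, against 54.3%, 54.4% and 53.8% in WT. The complement, 2L beyond 500 kb, was therefore higher, by log2 0.06, with the separate classes between log2 0.10 at 500 kb to 2 Mb on the *CG5888* side and 0.17 at 2 to 5 Mb on the *Tpr2* side where the genotypes did not overlap.

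Seen from the gypsy2 viewpoint, the *CG5888* side was higher at 5 to 20 kb, with 11.5% ± 0.519 in gypsy2 and 8.47% ± 0.504 in WT, and at 20 to 50 kb, with 12.2% ± 0.197 in gypsy2 and 11% ± 0.593 in WT (SD, n = 3 each). At 50 to 100 kb it overlapped, at 100 to 200 kb it was higher by log2 0.14, and at 200 to 500 kb lower by log2 0.27 (2.57%, 2.32% and 2.2% in gypsy2, against 2.95%, 2.73% and 2.86% in WT). All farther classes of that side were lower without overlap, by log2 0.10 to 0.13. On the *Tpr2* side the share was lower at 5 to 20 kb, the *dac* bins (log2 -0.16, and 0.06 with capped bins), and at 20 to 50 kb (log2 -0.18), and the genotypes overlapped in every class beyond. The bins within 500 kb held 57%, 56.7% and 58.1% in gypsy2, against 55.3%, 55.8% and 52.7% in WT. The share of 2L beyond 500 kb was lower by log2 0.09, and 0.008 higher when scaled to counts beyond 200 kb. The genotypes did not overlap in 13 of 18 distance regions from PRE2 (72.2%) and 11 of 18 from the gypsy2 viewpoint (61.1%). These 18 include the complementary sums within and over 500 kb, and the 16 single classes gave 11 from PRE2 and 9 from the gypsy2 viewpoint. Of the tested single bins within 500 kb, which hold far fewer counts than such sums, 26% did not overlap from PRE2 and 21.7% from the gypsy2 viewpoint.

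**Figure D4:**
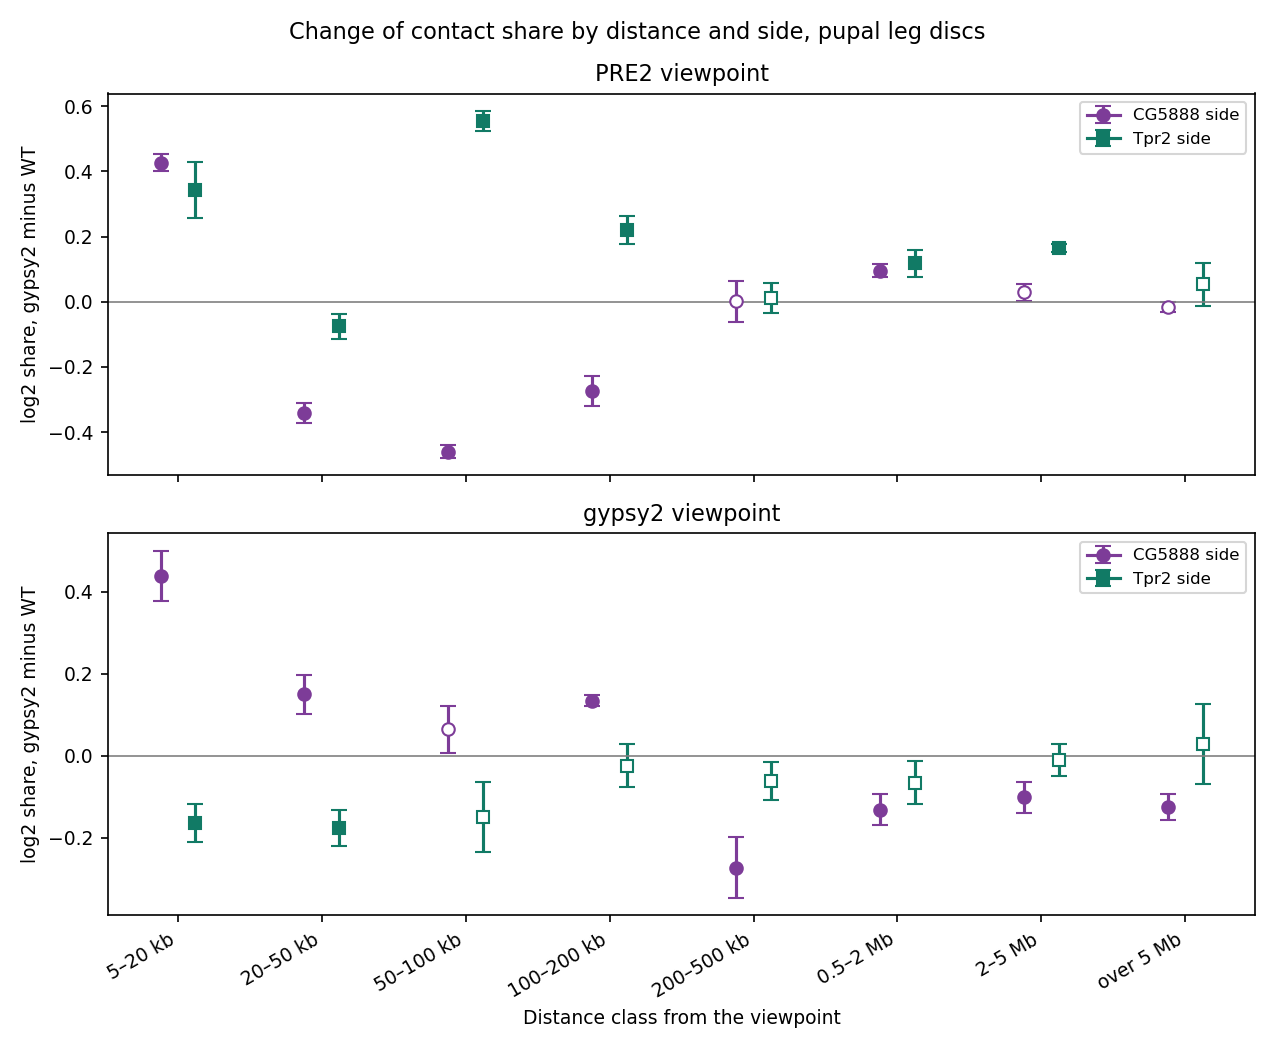
Log2 difference in the share of 2L counts, gypsy2 minus WT, by distance class and side, from the PRE2 viewpoint (top) and the gypsy2 viewpoint (bottom). Error bars are SE over 3 libraries each, and filled symbols mark classes in which the genotypes did not overlap. From PRE2 the *CG5888* side turns from 0.43 at 5 to 20 kb to -0.34, -0.46 and -0.27 at 20 to 200 kb.

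Single bins far away gave few calls. On 2L beyond 500 kb edgeR called 8 of 17782 bins from PRE2 (0.045%) and 7 of 17921 from the gypsy2 viewpoint (0.0391%), none of which limma with a trend called. On other chromosomes 2 of 40287 bins (0.00496%) and 4 of 43537 (0.00919%) were called, and the one called by limma as well was the gypsy element on 2R from the gypsy2 viewpoint. There, 76.02% and 79.83% of the tested bins had counts in 2 or fewer of the 6 libraries, so a difference in single bins was mostly not detectable at this depth. As a whole, the other chromosomes received 26.7, 27.2 and 24.3 counts per 100 counts on 2L in gypsy2, against 26.5, 29.7 and 26.9 in WT from PRE2 (exact permutation p = 0.5, n = 3 each). Those of the gypsy2 viewpoint were 25.8, 26.45 and 21.6 in gypsy2, against 26, 28.7 and 27.6 in WT (exact permutation p = 0.2, n = 3 each). No single chromosome separated the genotypes from PRE2 (0% of 7 sums), and from the gypsy2 viewpoint only Y did (14.3% of 7), with 0.0625, 0.0788 and 0.0474 in gypsy2, against 0.0978, 0.0913 and 0.11 in WT. The labels do not give the sex of the animals.

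Larval leg discs, compared in the same way, rested on separate libraries of lower depth (2274115 to 6456560 counts). From PRE2 the PRE1 region had 2.02%, 2.16% and 1.96% in larval gypsy2, against 3.3%, 2.96% and 3.56% in larval WT, a log2 difference of -0.62 in pupae beside -0.67 in larvae (difference 0.05, exact permutation within stages p = 0.855). *dac* differed by log2 0.42 in pupae and 0.287 in larvae, *CG5888* by -0.411 in pupae and -0.705 in larvae, and *Tpr2* by 0.343 in pupae and 0.346 in larvae. *CG5953* was lower in pupal gypsy2 (log2 -0.09) and on average higher in larval gypsy2 (log2 0.16), where the genotypes overlapped. Its larval libraries had 4.56%, 4.57% and 4.24% in gypsy2, against 4.03%, 3.69% and 4.27% in WT. The exact permutation p of the difference between the stages was 0.01, and 0.02 without larval WT replicate 2. In all, 13 bins from PRE2 (0.0713% of those tested) and 21 from the gypsy2 viewpoint (0.0728%) were called for a difference between the stages. From the gypsy2 viewpoint the PRE1 region differed by log2 0.10 in pupae and 0.46, without overlap, in larvae (difference -0.357, exact permutation p = 0.13). Over 84 comparisons of both stages 2 had a p of 0.05 or less, and the smallest adjusted p was 0.42. The smallest p was 0.005 at 20 to 50 kb on the *Tpr2* side from PRE2 (0.025 without larval WT replicate 2). This is the smallest p the test allows, and that class contains the bins of *CG5953*, so the 2 are not independent.

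**Figure D5:**
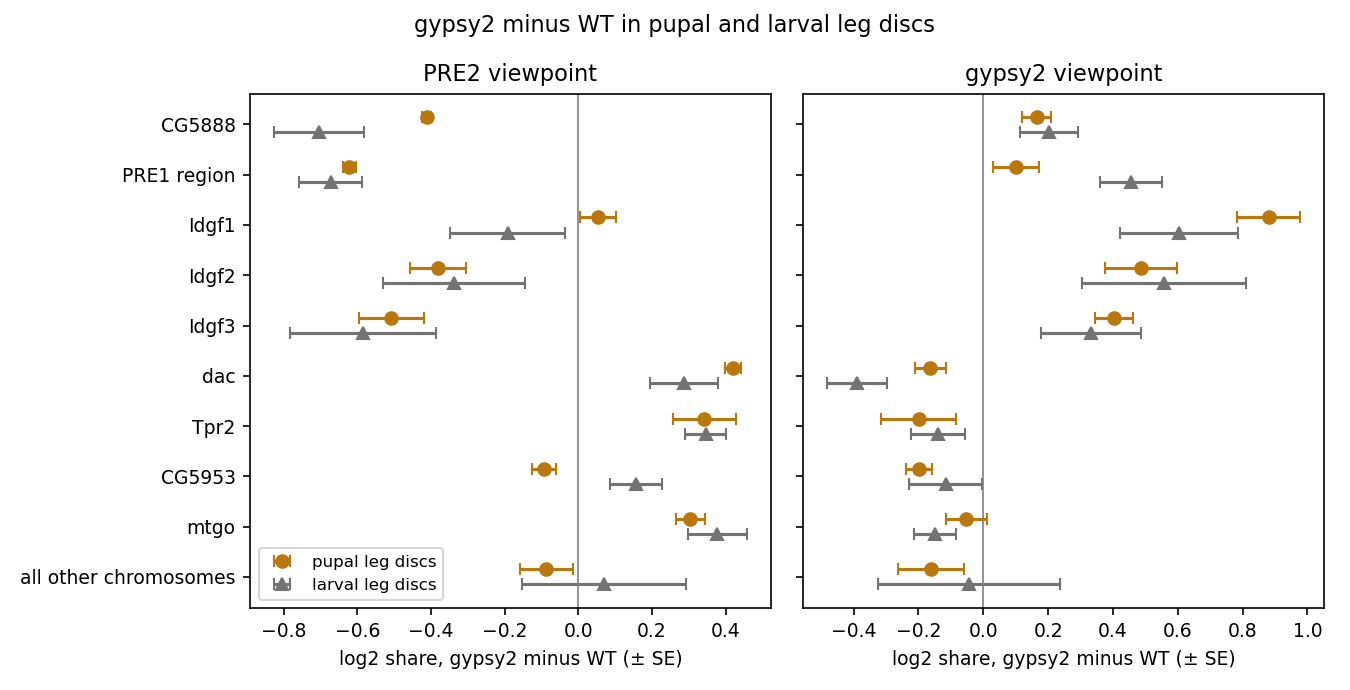
Log2 difference in the share of 2L counts, gypsy2 minus WT, in pupal (circles) and larval (triangles) leg discs for regions near the viewpoints and for all other chromosomes, from the PRE2 viewpoint (left) and the gypsy2 viewpoint (right). Error bars are SE over 3 libraries each. For the PRE1 region from PRE2 the pupal value is -0.62 and the larval value -0.67.

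Bin by bin, 70 of the 71 near bins called in pupae from PRE2 were measured in larvae, and 64 of them differed in the same direction, 52 without overlap of the larval libraries. Of all tested near bins, 64.78% had the same direction and 19.86% the same direction without overlap. Of the 59 such bins from the gypsy2 viewpoint 58 were measured, 51 had the same direction and 34 did so without overlap, against 59.74% and 15.43% of all tested near bins. Among the bins named above, those of *Tpr2* at 16495001, of *CG5888* at 16418001 and 16442001, of *dac* at 16481001 and 16482001 and of amplicon D3 had the same direction in larvae without overlap. The *Tpr2* bin at 16502001 did not, with 0.0496%, 0.128% and 0.0674% in larval gypsy2, against 0.00187%, 0.0219% and 0.00314% in larval WT.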

How the data were processed

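4C-seq was read from the authors' deposited tables of raw counts per 1-kb bin (dm6), 1 column per library and 1 table per stage and viewpoint. The submitters' processing notes name Bowtie (no version) and dm6, the labels refer the 4C procedure to an earlier publication, and neither enzymes nor filters are given in the sources used here. Whether PCR copies were removed is likewise not given in them, so counts may not be independent molecules. The members and lists were chosen with earlier results of these data known. The bin with the highest count was taken as the viewpoint, and it and 5 kb either side were left out. Each library was scaled to its 2L total, 4046593 to 9826954 counts in pupae, which limits single bins more than regions.

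Region shares were compared by exact two-sided permutation of 3 libraries against 3 (smallest p 0.1), and bins and gene sums with a mean of at least 10 counts by edgeR 4.0.16 (quasi-likelihood, R 4.3.3) with Benjamini-Hochberg adjustment over all features, called at an adjusted p under 0.05. The scripts were tested on simulated counts in which well-covered features were changed by log2 1 or 2. Of 100 bins changed by log2 1, edgeR called 6 from PRE2 and 3 from the gypsy2 viewpoint. Of 100 changed by log2 2 it called 21 and 18. Among genes it called 12 and 5 of 100 at log2 1, and 57 and 36 of 100 at log2 2. A missing call thus does not show an unchanged feature. DESeq2 1.42.0, limma, other totals and filters, capped bins, 6-kb windows, a replicate block and each library left out were the alternatives. Named were genes within 100 kb, members of fixed lists, and up to 10 called genes in each direction with the largest change and no overlap. Called bins were to be named in the same way, but not all that met this rule are described. Bins resting on WT replicate 2, *Gli*, *CG14893*, *Dll*, *pdm2* and *Ubx* aside from the lists, and the strongly covered bins of *dac*, *CG5888*, *Tpr2* and amplicon D3 were also named after their values were seen. Genes came from Ensembl release 115. Hi-C and CUT&RUN samples and the embryo 4C-seq libraries of the series were not used here.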

Additional observations from a re-analysis of the deposited data

Results flagged for a closer look

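The gypsy2 minus WT difference itself differed between pupal and larval leg discs, by edgeR's test of the interaction, in 13 of 18237 bins from PRE2 (9 with a higher pupal difference) and in 21 of 28863 bins from the gypsy2 viewpoint (13 with a higher pupal difference). Without larval WT replicate 2, 17 and 21 bins were called, which included 9 of the 13 and 15 of the 21, the 3 bins described here among them. From PRE2 the *dac* bin at 16476001 had 0.655%, 0.496% and 0.64% of 2L counts in pupal gypsy2, against 0.413%, 0.376% and 0.321% in pupal WT, and 0.426%, 0.304% and 0.275% in larval gypsy2, against 0.485%, 0.395% and 0.491% in larval WT. The bin at 16544001, between *CG31816* and *mtgo*, had 0.191%, 0.141% and 0.229% in pupal gypsy2, against 0.0283%, 0.0873% and 0.048% in pupal WT, and 0.0692%, 0.0729% and 0.0506% in larval gypsy2, against 0.109%, 0.103% and 0.159% in larval WT. From the gypsy2 viewpoint the bin at 16425001, the last of the PRE1 region, had 0.787%, 0.852% and 0.969% in pupal gypsy2, against 0.841%, 0.82% and 0.656% in pupal WT, and 1.3%, 1.28% and 1.17% in larval gypsy2, against 0.648%, 0.952% and 0.756% in larval WT. The stages were separate libraries of different depth, and the part of depth in these differences was not tested.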

How the results depend on the processing

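From PRE2, edgeR called 81 bins, against 1201 with DESeq2, 41 with a count minimum of 50 and 34 in 6-kb windows, and 15 genes, against 174 with DESeq2 and 28 with limma. From the gypsy2 viewpoint it called 70 bins, against 2193 with DESeq2, 21 in 6-kb windows and 38 with a robust fit, and 13 genes, against 312 with DESeq2, 8 with a robust fit and 23 with limma. DESeq2 also called 16 of the 81 and 19 of the 70 bins, and 11 of the 15 and 11 of the 13 genes. From PRE2 it did not call *Tpr2* (DESeq2 adjusted p = 0.0509), *CG31816* (0.066), *ORY* (0.0704) or *Gli* (0.201). From the gypsy2 viewpoint it did not call *dac* (DESeq2 adjusted p = 0.584) or *CG14893* (0.0591). limma also called 64 and 54 of the bins and 11 and 9 of the genes. DESeq2 held 43.1% of bins from PRE2 and 51.2% from the gypsy2 viewpoint at its dispersion limit. It scaled by its own factors rather than to the 2L totals, so its calls differ in more than the test. An adjusted p was given for 19762 of 58956 bins from PRE2 and 20186 of 62346 from the gypsy2 viewpoint. In 6-kb windows the differences from larvae numbered 2 from PRE2 and 6 from the gypsy2 viewpoint. Without 1 library the PRE2 counts ranged over 61 to 92 bins, 9 to 16 genes (9 without gypsy2 replicate 2) and 11 to 24 differences from larvae (24 without WT replicate 2), and those of the gypsy2 viewpoint over 59 to 67 bins, 10 to 13 genes and 13 to 22 differences (13 without gypsy2 replicate 1).

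Signs turned for *Idgf1* from PRE2 (-0.002) and for *mtgo* (0.043) and 2L over 500 kb (0.008) from the gypsy2 viewpoint with 2L counts over 200 kb away, for *mtgo* from the gypsy2 viewpoint without WT replicate 3 (0.001, in a range of -0.099 to 0.001 without 1 library), and with capped bins for *dac* and the 5 to 20 kb class of its side from the gypsy2 viewpoint (0.06), for the bins at 16424001 (0.07) and 16429001 (0.12) from PRE2 and for those at 16474001 (0.10), 16475001 (0.06) and 16484001 (0.30) from the gypsy2 viewpoint. The bin at 16424001 lies in the PRE1 region. The cause of these turns was not tested. Capping lowers the bins with the highest counts by construction.

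The other 546 of 552 region values kept their direction. Their exact permutation p cannot fall below 0.1, so no alternative could move them across 0.05. Of 2918 values for single called genes and bins, 2281 kept direction and call, 631 lost the call and 6 turned in sign. Without 1 library the log2 change from PRE2 ranged over -0.629 to -0.61 for the PRE1 region, 0.403 to 0.44 for *dac*, -0.418 to -0.402 for *CG5888* and 0.264 to 0.384 for *Tpr2*. For the gypsy2 viewpoint it ranged over 0.054 to 0.148, -0.195 to -0.135, 0.123 to 0.187 and -0.311 to -0.131 for the same regions. Same-numbered libraries showed little shared deviation in the bins within 500 kb (correlations -0.053 to -0.031 from PRE2 and 0.003 to 0.096 from the gypsy2 viewpoint). This cannot show whether the libraries were prepared in pairs, which the labels do not give. With the replicate number as a block, edgeR called 58 bins and 13 genes from PRE2 and 55 bins and 11 genes from the gypsy2 viewpoint. On other chromosomes most tested bins had counts in 2 or fewer libraries, which limits single bins there. The log2 change from PRE2 minus that from the gypsy2 viewpoint kept its direction in 28 of 28 values for the PRE1 region, *dac*, *CG5888* and *Tpr2*.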
